A study of Drosophila melanogaster with 3 samples.

Results

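The DNA replication-related element (DRE, TATCGATA) lay wholly within 50 bp of the summit at 296 promoter peaks of the Bab1-GFP chromatin immunoprecipitation. The peaks came from the list that had passed the authors' irreproducible discovery rate (IDR) filter. Promoter peaks were those with a summit no more than 1000 bp upstream or 100 bp downstream of an annotated transcription start site (TSS), and the DRE had to match all 8 bases. The IDR list held 5014 promoter peaks and 1882 others, so the DRE was present at 5.90% of promoter summits (exact 95% confidence interval 5.27 to 6.59%). Within the IDR list, the rule did not use peak strength. A single copy was present in 278 windows and 2 copies in 18, and none held more.

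The study profiled whole adult females of Drosophila melanogaster, of unknown age, from the strain labelled bab1-RA (bab1-s)-GFP, in which GFP is fused to Bab1. All samples carried this insertion, and the regulatory DNA that drives it is not given in the sources used here. Chromatin was sonicated to fragments of 200 to 800 bp and precipitated with an antibody to GFP. There was 1 group, of 3 biological replicates, and so no contrast between treatments or genotypes. Each replicate file listed 30000 peaks. Its strongest peaks by signal value, as many as the IDR list holds, are called its top list here. Read depth behind the peaks is unknown, and signal values are the authors' and comparable only within a list. A library from untagged flies was not used here, so binding by Bab1 and background of the precipitation cannot be told apart. Peak lists hold no expression, so the labelled sex and tissue were not checked against marker genes. Where p-values are given, they measure only the spread between these 3 samples.

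Bab1 (Bric-à-brac 1) is a BTB-domain transcription factor known for patterning of the leg, ovary and abdominal pigmentation. The DRE is a palindrome of the fly core promoter bound by Dref, a BED-finger protein that activates genes of DNA replication, growth and other widely used functions. The boundary protein BEAF-32 recognises CGATA repeats, which the DRE contains, so that a DRE can be read by more than one protein.

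Summit windows of 6 of the strongest members are printed first, chosen among those that overlap no annotated exon, followed by 2 windows with 2 copies. They show where the element stood relative to the summit, which is the central base of each line. All are the plus strand of dm6 (RefSeq Release 6 sequence), 5′ to 3′, with the DRE in capitals. The windows were, in order, chr3R:26059293-26059393, chrX:15085971-15086071, chr3R:25685052-25685152, chr3R:16342071-16342171, chr3R:18983676-18983776, chrX:16313181-16313281, chr3R:10407307-10407407 and chr3L:16051050-16051150. None overlaps an annotated exon, and each summit lies in the promoters of the genes named.
RpL34a/Trmt61: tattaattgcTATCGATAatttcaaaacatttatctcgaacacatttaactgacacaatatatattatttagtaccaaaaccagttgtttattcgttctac
Dbct/CG15027: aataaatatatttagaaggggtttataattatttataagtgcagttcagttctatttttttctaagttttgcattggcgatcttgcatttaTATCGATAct
RpL27: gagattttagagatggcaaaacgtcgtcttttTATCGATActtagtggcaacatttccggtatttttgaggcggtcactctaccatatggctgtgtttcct
SF2/pad: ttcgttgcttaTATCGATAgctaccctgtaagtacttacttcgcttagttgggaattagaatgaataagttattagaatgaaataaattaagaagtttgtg
snRNP-U1-C/gukh: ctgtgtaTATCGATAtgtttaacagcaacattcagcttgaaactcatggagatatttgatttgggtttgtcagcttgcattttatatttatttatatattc
CG9915/SWIP: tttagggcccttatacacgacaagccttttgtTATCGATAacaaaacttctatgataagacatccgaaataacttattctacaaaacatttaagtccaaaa
CG6325/mir-994/mir-318: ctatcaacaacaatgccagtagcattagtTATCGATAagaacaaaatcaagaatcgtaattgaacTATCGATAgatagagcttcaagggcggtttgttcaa
Diap1/Mbs: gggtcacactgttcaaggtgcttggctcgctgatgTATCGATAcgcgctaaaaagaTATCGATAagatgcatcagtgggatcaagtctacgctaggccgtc

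Members at promoters of listed genes of DNA replication, known Dref targets, mitochondrial DNA maintenance and the cell cycle are shown as 30-base stretches, because these lists hold the classical targets of the element. Stretches for Tbp and BubR1, which are also members, are not shown. Each is on the strand of its gene, with the DRE in capitals, so that bases around the common core can be compared. PolA1 had copies at chr3R:21671742-21671771 and chr3R:21671795-21671824 on the minus strand. The others were at chr3L:20361600-20361629 (minus), chr3L:5897418-5897447 (minus), chr2L:13829756-13829785 (plus), chrX:10385890-10385919 (minus), chrX:11616128-11616157 (minus, RPA3), chr3L:11833571-11833600 (minus), chr3R:17718340-17718369 (minus), chr3R:10045526-10045555 (plus), chr2L:9893418-9893447 (minus) and chr3R:20735551-20735580 (plus).
PolA1 copy 1: cgtagctctgtTATCGATAtgttcccgcca
PolA1 copy 2: cttaacgacacTATCGATAttacattgcaa
Prim2: gagcagaaaacTATCGATAacaactgacac
PolE2: atgcacatagaTATCGATAattgacaacat
Orc5: ttatttcgttaTATCGATAtttttcgattg
Psf3: cagttcgacttTATCGATAgtccgatgggc
RPA3: agtctaaaaacTATCGATAcatcgatgtaa
CycA: acgccacgaccTATCGATAgctggacagtg
osa: atactcgtacgTATCGATActatcgtgcgt
mtTFB2: gttcgttatgcTATCGATAagttattgggt
mtDNA-helicase: ctcactttcgaTATCGATAacatggaaaat
Cdk2: taaggaattctTATCGATAtgtggcgctgc

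DREs were denser near promoter summits than 250 to 500 bp away from them. Within 500 bp of the 5014 promoter summits there were 1053 DREs, of which 328 had their centre within 50 bp of the summit and 157 lay 250 to 500 bp away. Per megabase of sequence this was 654 DREs near the summit and 62.6 in the outer stretches, a ratio of 10.4. Around the promoter summits of the replicate top lists the densities were 648 and 64.8 in replicate 1, 584 and 62.6 in replicate 2, and 609 and 65.2 in replicate 3. Because summits and DREs both lie close to TSSs, the position of the promoter and the position of the element could not be told apart from this profile alone.

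**Figure D1:**
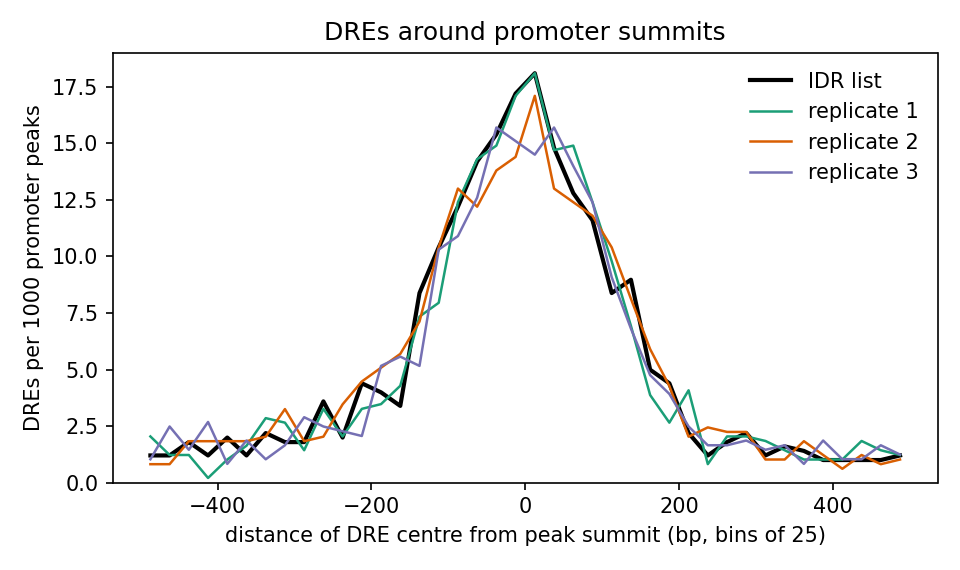
DREs per 1000 promoter peaks (vertical axis) against the distance of the DRE centre from the peak summit in bp, in bins of 25 bp, for the IDR list and the 3 replicate top lists. The 4 lines rise together towards the summit, and the IDR list reaches 18.1 DREs per 1000 peaks in the bin from 0 to 25 bp.

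The enrichment at the summit differed between the DRE and its variants. In the promoter summit windows the DRE was 12.9 times as frequent as in windows 500 bp to either side, 5.90% against 0.459%. Changing base 1 of the element retained part of this, to differing degrees. CATCGATA was in 2.69% of summit windows with a ratio of 9.31, AATCGATA in 3.25% with 5.62, and GATCGATA in 0.479% with 2.53. Changes at base 2 gave ratios from 2.25 to 4.12, and changes at base 3 gave ratios from 2.58 to 4.18. Changing the central C to any other base gave ratios from 0.750 to 1.28. The 11 other 8-base palindromes of the same letters were in 0.0598% to 0.479% of summit windows, with a median ratio of 1.00. Promoter summits lie close to TSSs, so position in the promoter was not separated from these ratios. In windows centred 23 bp upstream of all TSSs of protein-coding genes, the DRE share was 5.57%. Windows and variants were searched on both strands, and neighbouring matches can overlap.

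The 296 members lay close to the start site. The median distance of the summit from the nearest TSS was -22.5 bp, negative meaning upstream (quartiles -45.2 to 0), whereas the median of the other 4718 promoter peaks was -62.5 (quartiles -164 to 7). Of the members, 216 (73.0%) had the summit in the 150 bp upstream of the TSS, against 45.2% of the other promoter peaks. None lay more than 500 bp upstream, where 391 (8.29%) of the other promoter peaks did. The element itself had a median position of -26.0 (quartiles -46.0 to -6.75), and 229 (77.4%) of the member DREs were in the 100 bp upstream of the TSS. Of all 1677 promoter DREs of the genome, 660 lay at -50 to -1 and 288 at -100 to -51. Because the rule requires a DRE near the summit, it partly sets how close members lie to the TSS. Protein-coding genes were at 295 of the 296 members and at 4540 of the 4718 other promoter peaks. TSSs on both strands were present at 139 members (47.0%), compared with 40.3% of the other promoter peaks. These shares are descriptions of how members and other promoter peaks are placed, and no test was made of them.

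Within the promoter, the DRE share was highest for summits just upstream of the TSS. It was 14.5% of the 1064 summits at -50 to -1, 7.71% of 726 at -100 to -51 and 7.20% of 945 at 0 to 50. Farther upstream it was 1.08% at -150 to -101 and 0.202% at -250 to -151. The share in the -50 to -1 class was 13.2% ± 0.484 (SD, n = 3) over the replicate top lists. The DRE is itself frequent at start sites: in windows of the same length centred 23 bp upstream of every TSS of protein-coding genes, it was found at 5.57% of 19253 start positions. It was found at 16.9% of 1147 such windows with an IDR summit within 25 bp of their centre, at 9.50% of 6115 with a summit elsewhere in the promoter, and at 2.48% of 11991 with no IDR summit in the promoter.

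Most members were found in every replicate. The summit lay inside a top-list peak in all 3 replicates for 190 members (64.2%, exact 95% interval 58.4 to 69.7%), in 2 for 84, in 1 for 20 and in none for 2. The same was true in all 3 replicates of 57.0% of all IDR peaks and of 58.7% of the other promoter peaks. In single replicates, 83.8% of members against 81.5% of other promoter peaks were in the top list of replicate 1. The shares were 86.8% and 86.8% in replicate 2, and 85.5% and 78.0% in replicate 3. The difference was 3.25 percentage points ± 3.82 (SD, n = 3; exact two-sided sign-flip permutation p = 0.5), within the spread between replicates. Replicate 3 decided its size, since without it the mean difference was 1.15. With 3 replicates this test cannot give a p below 0.25. In the whole lists of 30000 peaks, 273 members had the summit inside a peak in all 3 replicates, and 23 had it outside any peak in 1 replicate.

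The element stayed near the summit in the separate replicates. The centre of the member DRE was a median of 21.5 bp from the IDR summit (quartiles 11.2 to 34.5), which the rule bounds. In the replicates, where the rule did not set it, the nearest summit of the peak was a median of 27.5 bp away in replicate 1 (n = 283), 27.5 bp in replicate 2 (n = 291) and 33.5 bp in replicate 3 (n = 291). Between 22 and 25 members per replicate had the summit over 100 bp away. A DRE of the member lay within the summit window of a top-list promoter peak for 186, 198 and 178 members in replicates 1, 2 and 3. The replicates contributed reads to the pooled list, so their summits are not independent of it.

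Members were of middling strength. Their median IDR signal was 319 (quartiles 259 to 418, range 202 to 1572), beside 327 for the other promoter peaks (quartiles 255 to 466, highest 8877). No member was among the 100 strongest IDR peaks, 81 of which were promoter peaks, and 8 were among the 500 strongest, of which 365 were promoter peaks. In the replicates' whole lists the median rank of members was 3500, 3734 and 3316, against 3481, 3319 and 3528 for the other promoter peaks. The difference in median rank percentile was -0.246 ± 1.06 (SD, n = 3; exact two-sided sign-flip permutation p = 0.75), within the spread of the replicates. It turned to 0.323 without replicate 2, and was -1.35 ± 0.614 among the stronger 50% of IDR peaks. The members' windows had a median GC content of 42.6% (quartiles 36.6 to 46.5), and those of other promoter peaks 39.6% (quartiles 30.7 to 47.5).

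By 4 equal bins of promoter peaks ranked on signal, the DRE share was lowest in the strongest bin of the IDR list, at 4.23%, and was 7.18%, 6.70% and 5.51% in the following ones. Over the replicate top lists the shares were 4.59% ± 0.895, 6.63% ± 0.779, 5.70% ± 0.561 and 4.88% ± 0.549 (SD, n = 3 each). The strongest of the 4 was below the mean of the others (difference -1.15 percentage points ± 1.03, SD, n = 3; exact two-sided sign-flip permutation p = 0.25, the smallest possible). It was below that mean in 3 of 3 replicates, but in replicate 3 the strongest bin had 5.28% and the weakest had 4.38%, the lowest of that replicate. The difference was -0.653 without replicate 2, and it turned to 3.30 when the whole lists of 30000 peaks replaced the top lists. In a division into 10 bins, added after values were seen, the strongest bin was the lowest in replicates 1 and 2 but not in replicate 3, where bin 9 had 3.51% and bin 7 had 4.13%. The strongest bin had 1.83%, 2.44% and 4.33% in replicates 1, 2 and 3, and the other 9 bins together 6.25%, 5.49% and 5.46%. The difference was -2.87 ± 1.65 percentage points (SD, n = 3; exact two-sided permutation p = 0.25). It turned to 1.42 in the whole lists. Among summits in the 150 bp upstream of the TSS, the strongest bin again had lower shares, 3.29%, 4.57% and 7.17%, than the rest, 9.24%, 8.45% and 8.95%.

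**Figure D2:**
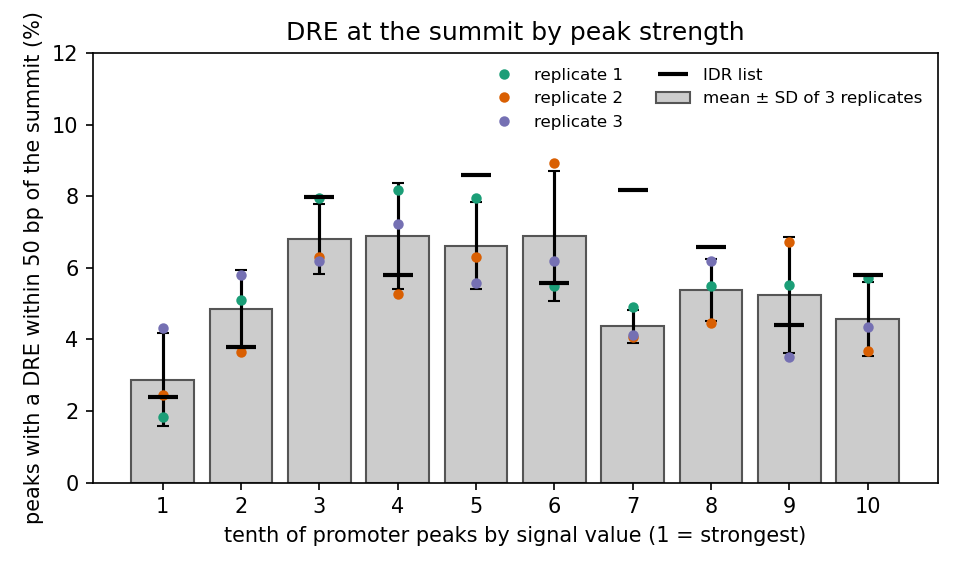
Share of promoter peaks with a DRE within 50 bp of the summit (vertical axis, percent) in 10 equal bins of signal value, the strongest at the left, with points for the 3 replicate top lists, bars for their mean ± SD and a dash for the IDR list. The strongest bin averaged 2.87% over the replicates, and bins 3 to 6 lay between 6.62% and 6.89%.

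The strongest members were at genes of basic cell functions and of other kinds. The peak at Alg3, a mannosyltransferase of N-glycan assembly, had an IDR signal of 1572 and was 136th in the list. It was peak 236, 128 and 78 by rank in replicates 1, 2 and 3, with signals of 372.7, 793.2 and 426.6. The peak at eEF1gamma, a subunit of the translation elongation factor complex, had an IDR signal of 1142 and replicate ranks of 605, 229 and 244. At the divergent pair RpL34a and Trmt61, which encode a ribosomal protein and a tRNA methyltransferase subunit, the signal was 1070 and the ranks were 582, 274 and 313. The pair CG14805 and CG14817 had 1061, with ranks 1135, 253 and 228. These 4 peaks thus stood near the head of each replicate's list, with the lowest rank, 1135, in replicate 1.

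CG1827 had an IDR signal of 1014, the pair Dbct and CG15027 1010, and RpS29, a small-subunit ribosomal protein, 917.1. The promoter shared by Roc2, a RING subunit of cullin ubiquitin ligases, and Buffy, a Bcl-2 family protein, had 915.3. Acat1, an acetyl-CoA acetyltransferase, had 861.1. Ribosomal protein genes recurred, with RpL19 (845.7), RpL27 (813.8) and RpL41 (774.8, in a promoter shared with the sodium channel gene NaCP60E). Signals between 723.6 and 610.0 belonged to Nrg, the adhesion protein Neuroglian, to SF2 with pad, to Atxn7, CG17292, Uck with CG34290, CG13751 with ana2, CkIalpha and Pym. SF2 encodes a splicing factor of the SR family, Atxn7 a SAGA subunit, ana2 a centriole duplication protein, CkIalpha a casein kinase and Pym an exon junction complex factor. Every replicate's top list held all 20 of these strongest members. They were chosen on the signal of a list derived from all 3 replicates, which largely sets this count.

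Where 2 copies were present, the peaks were not among the strongest. The 18 members had a best rank of 1565, at the promoter shared by Pi3K92E, a class I phosphoinositide 3-kinase, and Lrrk, with an IDR signal of 482.5. The next were the promoter of eIF2gamma, Su(var)3-9 and Set (341.2), CG7115 (340.2), CG6325 with mir-994 and mir-318 (325.0) and CDK2AP1 with Klp10A (317.8). The distance from 1 copy to the next was a median of 27.5 bp, from 6 to 81 bp, and 2 members had overlapping copies, 6 bp apart. Of the 18, 11 were in all 3 top lists.

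The 2 members in no top list differed in how far they ranked below it. At pug, a gene of folate metabolism, the IDR peak had a signal of 221.8 and ranks 17537 and 20055 in replicates 2 and 3. No replicate 1 peak held its summit. At pn, prune, a phosphoesterase, the signal was 213.6 and the ranks were 7266, 7580 and 8155.

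The edges of the rule are described once, with no test. Just inside the window, with the DRE centre 46.5 bp from the summit, were the peaks at ms(3)K81 and Rb97D (IDR signal 466.2), at CycA (265.2) and at GLaz with Spt-I (217.0). Just outside were rno with mri at 47.5 bp (377.9), Bre1 at 47.5 bp (248.3) and p53 at 48.5 bp (325.1). There were 222 other promoter peaks with a whole DRE within 100 bp of the summit but not within 50 bp. Counting from the TSS, the farthest members were Dgat2 and tej, at -491 and -474, and the farthest downstream were CDK2AP1 with Klp10A and Asap with Nup50, at 85 and 76.

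Read from the sequence side, most DREs of the genome lay away from a summit. Of 4019 exact DREs on the main chromosomes, 322 (8.01%) had an IDR summit within 50 bp. This held for 314 of 1677 in promoters (18.7%, exact 95% interval 16.9 to 20.7%), 1 of 368 in exons, 6 of 1200 in introns and 1 of 774 between genes. For promoter DREs the share was 16.9% ± 1.16 (SD, n = 3) in the replicate top lists. It was 28.0% of 660 DREs at -50 to -1 from the TSS (24.6% ± 1.62 in the replicates) and 0.559% of 179 at -1000 to -501 (0.745% ± 0.645).

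**Figure D3:**
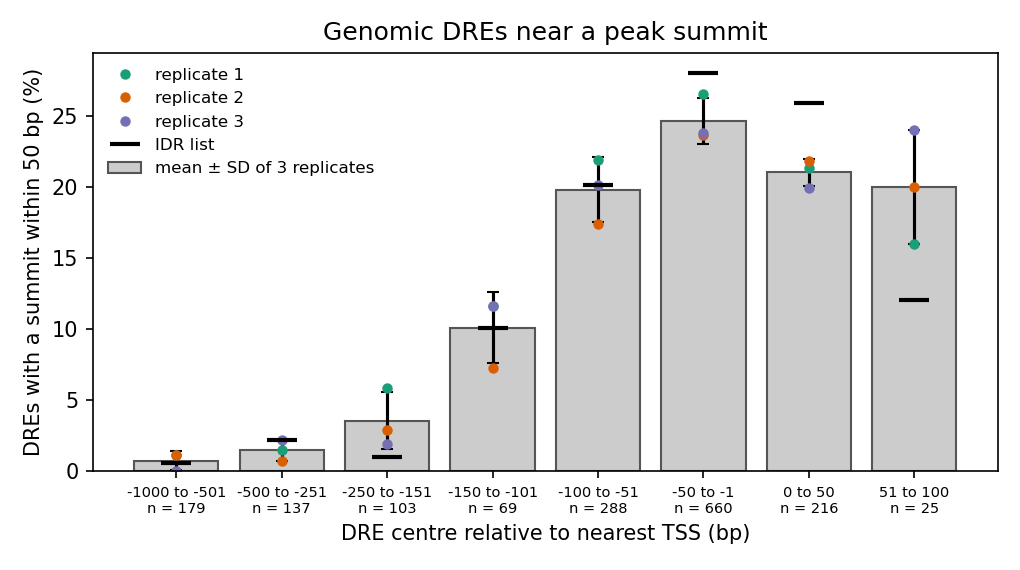
Share of genomic promoter DREs with a peak summit within 50 bp (vertical axis, percent) by the position of the DRE centre relative to the nearest TSS in bp, with points for the 3 replicate top lists, bars for their mean ± SD and a dash for the IDR list. The replicate mean was 0.745% farthest upstream and 24.6% in the 50 bp before the TSS.

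Features of the DREs in the 150 bp upstream of a TSS went with small differences in this share. A second DRE within 150 bp went with 29.9% (46 of 154) of DREs having an IDR summit, against 23.6% (204 of 863) without, and the replicate difference was 4.60 percentage points ± 0.716 (SD, n = 3; exact two-sided permutation p = 0.25). At promoters with TSSs on both strands the IDR share was 21.4%, and with TSSs on 1 strand 28.5%, a replicate difference of -5.45 ± 0.353 (exact p = 0.25). Both differences had the same sign in 3 of 3 replicates. Bases next to the element were compared between 250 DREs with an IDR summit and 767 without, read along the gene's strand and with no test. All bases at the 6 positions on either side were compared, and the largest differences, picked for their size, are given first. C directly upstream was found in 36.0% and 29.5%, T at the fifth base downstream in 23.6% and 30.6%, and C at the sixth base downstream in 26.8% and 19.8%. A at the third base upstream was found in 47.6% and 45.0%, and G directly upstream in 8.80% and 8.87%.

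The X chromosome carried 82 of the 296 members (27.7%) and 863 of the 4718 other promoter peaks (18.3%). It also carried 414 of the 1677 promoter DREs (24.7%). Among DREs in the 150 bp upstream of a TSS, 25.4% on the X and 24.4% on the large autosome arms had an IDR summit. In the replicate top lists the X share was 18.8% and the autosome share 23.5%, a difference of -4.70 ± 2.96 percentage points (SD, n = 3; exact two-sided permutation p = 0.25).

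Genes with a DRE in the promoter more often had a promoter peak. An IDR summit was in the promoter of 1490 of 2192 genes with a DRE (68.0%) and of 4777 of 15972 genes without (29.9%). In the top lists the shares were 65.5% ± 0.807 and 28.7% ± 0.456, and the difference was 37.4, 36.4 and 36.6 percentage points in replicates 1, 2 and 3 (mean 36.8 ± 0.526, SD, n = 3; exact two-sided sign-flip permutation p = 0.25, the smallest possible). With 1 DRE the IDR share was 66.6%, with 2 it was 77.1% and with 3 or more 72.5% (29 of 40 genes). Among protein-coding genes, of which 40.9% had an IDR summit in the promoter, the difference was 33.0 ± 0.122. Genes with more TSSs have more promoter sequence for both features, and among genes with 1 annotated TSS the difference was 38.5 ± 1.07 (61.7% and 23.2%, exact p = 0.25). Expression of the genes was not measured here, and its part in this difference was not tested.

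**Figure D4:**
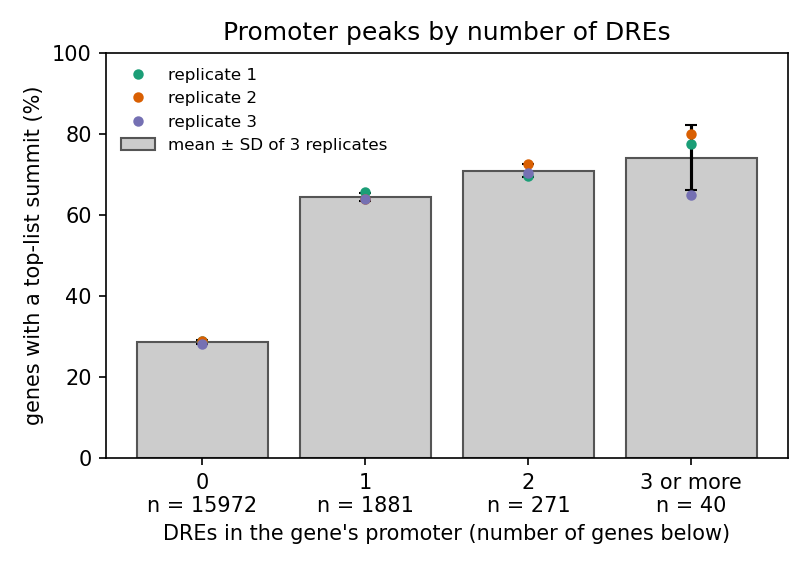
Share of genes with a top-list summit in the promoter (vertical axis, percent) by the number of DREs in the promoter, with points for the 3 replicates and bars for their mean ± SD. Genes without a DRE averaged 28.7%, and genes with 1 averaged 64.5%.

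In the lists of genes below, a gene counts when a member peak lies in its promoter, and 2.60% of all genes (473 of 18164) did. Among protein-coding genes the share was 3.16% (441 of 13945). An IDR summit was in the promoter of 6267 of all genes (34.5%). The lists were chosen with earlier results of these data known, and counts are descriptions with no test. Of 49 DNA replication genes, 33 had an IDR summit in the promoter, 19 had a DRE there and 6 (12.2%) were at a member peak. The peaks were weaker than the median member at 5 of the 6.

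Orc5, a subunit of the origin recognition complex, was the exception, with an IDR signal of 435.9 and ranks of 827, 3585 and 2347 in the replicates, in a promoter shared with Arpc1. PolA1, the catalytic subunit of DNA polymerase alpha, had a signal of 244.4, ranks 6739, 5384 and 4603, and 2 DREs, 9.5 and 43.5 bp from the summit. Prim2, the large subunit of primase, had 262.0, with ranks 6665, 6503 and 3441. PolE2, a subunit of DNA polymerase epsilon, had 242.2, with ranks 4800, 9368 and 4998, the second of them outside the top list. Psf3, a subunit of the GINS complex, had 253.7 and was in all 3 top lists, in a promoter shared with flw. RPA3, of the single-strand binding complex, had 235.3, and its IDR summit lay inside no replicate 3 peak. Replicate 3 did have a top-list summit in the RPA3 promoter. The DRE was 303 bp upstream of the RPA3 TSS (-303), beside the TSS of Met.

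Known Dref targets from the literature, named as background, were at member peaks for 4 of 17 genes (23.5%), of which PolA1 is also a replication gene. A promoter DRE was present at 58.8% of the 17 and at 12.1% of all genes. The list was chosen as targets of the element, so its member share is partly set by that choice. CycA, the mitotic cyclin A, had an IDR signal of 265.2 and was in 2 top lists. Tbp, the TATA-binding protein, had 324.7 and ranks of 2002, 4360 and 5298. The gene osa, a subunit of the Brahma chromatin remodeller, had 367.0 and ranks of 4431, 2168 and 4793. Of the other known targets with a promoter DRE, PCNA, the replication clamp, had its DRE 63.5 bp from the nearest IDR summit, PolA2 72.5 bp, p53 48.5 bp, mor 119.5 bp, Cat, catalase, 180.5 bp and SkpA 449.5 bp. These fell outside the summit window, although 14 of the 17 genes had a promoter summit. Cat had none, so the summit nearest to its DRE lay outside its promoter.

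Of 10 genes of mitochondrial DNA maintenance, 2 were at members. These were mtTFB2, a mitochondrial transcription factor (408.6, in all 3 top lists), and mtDNA-helicase (224.6, in 1 top list, with ranks 8339, 4147 and 15451). The mtTFB2 promoter is shared with CG11722, whose TSS was the nearer to the summit. Dref and its partners, 14 genes, all had an IDR promoter summit and none was at a member peak. The 6 of them with a promoter DRE had it 100.5 bp (Iswi, a chromatin remodelling ATPase) or farther from the summit. BEAF-32 was at 106.5 bp, XNP at 122.5 bp and Cp190 at 149.5 bp. The Cp190 peak was among the strongest of the list, with a signal of 1770. Of 30 cell cycle genes 3 were at members, CycA, Cdk2 (274.7) and the checkpoint kinase BubR1 (256.5).

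Among widely expressed families, member peaks were at 7 of 93 cytosolic ribosomal protein genes (7.53%), led by RpL34a (1070), RpS29 (917.1) and RpL19 (845.7). They were at 5 of 73 mitochondrial ribosomal protein genes (6.85%), led by mRpL19 (444.2), mRpL10 (424.3) and mRpL17 (236.9). Proteasome subunits had 3 of 32 (9.38%), Prosbeta1 (487.3), Prosalpha5 (431.6) and Rpt5 (397.4). Aminoacyl-tRNA synthetases had 3 of 33 (9.09%), TrpRS (488.7), AlaRS (427.8) and ArgRS (215.5). Nuclear genes of oxidative phosphorylation, listed by gene-name prefix, had 4 of 87 (4.60%), led by ND-15 (434.8), ND-ASHI (298.3) and ND-19 (281.2). Subunit genes with other names are not in that list, and the members at NdufA3 (515.2) and Cyt-c1 (293.3, in a promoter shared with Klp64D) were noticed after values were seen and are not counted. The Mediator had 2 of 29 (6.90%), MED28 (304.6) and MED18 (257.6). Rab GTPases, which direct vesicle traffic, had 4 of 23 (17.4%), led by Rab8 (561.2), Rab30 (466.6) and Rab27 (345.3). An IDR promoter summit was present at 85 cytosolic and 58 mitochondrial ribosomal protein genes. It was present at 25 proteasome, 27 synthetase, 53 oxidative phosphorylation, 24 Mediator and 21 Rab genes. Among all genes with an IDR promoter summit, 473 of 6267 were at a member peak. Counted in the same way, members were at 7 of 85 cytosolic and 5 of 58 mitochondrial ribosomal protein genes. They were at 4 of 53 oxidative phosphorylation, 2 of 24 Mediator, 3 of 25 proteasome, 3 of 27 synthetase and 4 of 21 Rab genes. The shares of whole lists were not separated from how often a list carried any promoter summit. Some promoters are shared, TrpRS with Vps16A, Prosbeta1 with Rrp42, Rab30 with Caper and Rab27 with mei-38. No member was at any of 179 chemosensory receptor or 118 cuticle protein genes, of which 8 and 0 had an IDR promoter summit and 7 and 6 a promoter DRE.

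**Figure D5:**
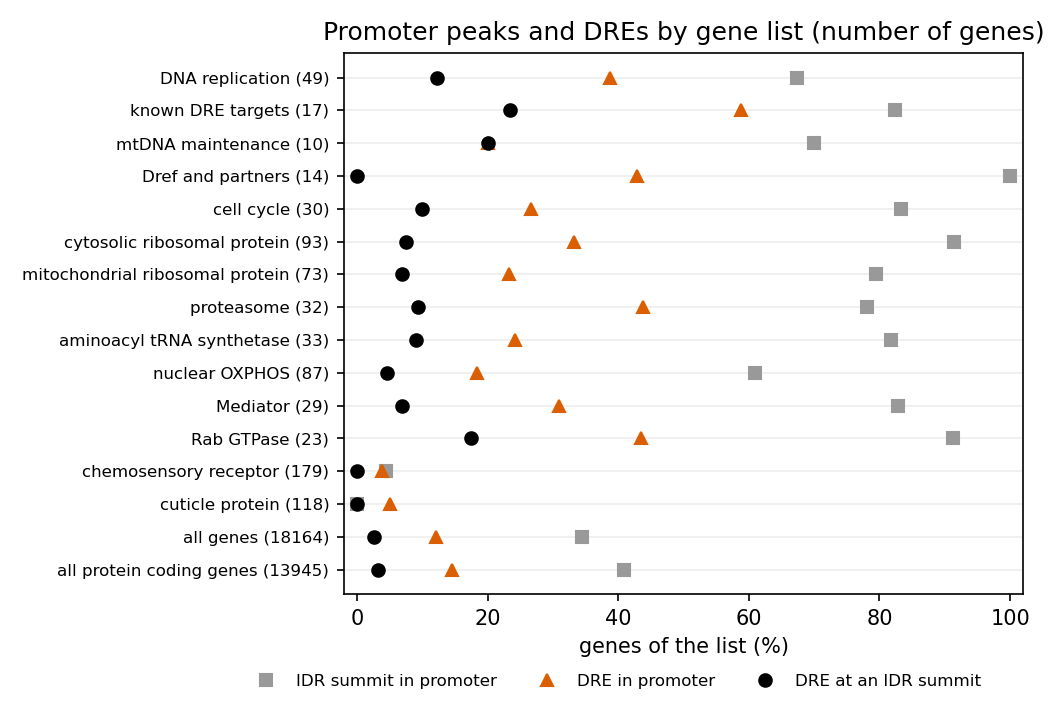
Share of genes (horizontal axis, percent) with an IDR summit in the promoter (squares), a DRE in the promoter (triangles) and a DRE at an IDR summit (circles), by gene list. All protein-coding genes are at the bottom, with all genes in the row above. Known Dref targets reach 23.5% for the circles and 58.8% for the triangles, and all genes 2.60% and 12.1%. That list was chosen as targets of the element, which partly sets these shares.

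Other core promoter patterns were present at different rates in member windows and in other promoter windows, searched on both strands. GAGAG, of the GAGA factor, was in 6.42% of members and 11.6% of the others (replicate top lists 5.51% ± 1.21 and 12.5% ± 1.23, SD, n = 3; exact two-sided permutation p = 0.25). TATAAA was in 8.78% and 16.3% (replicates 7.93% ± 1.98 and 16% ± 1.59, exact p = 0.25). CAGCTG, an E-box, was in 47 members (15.9%) and 8.80% of the others (replicates 13.4% ± 0.585 and 8.94% ± 0.357, exact p = 0.25). In the 47 members it lay a median of 19 bases from the DRE, which it cannot overlap. Smaller differences were seen for CACGTG, in 1.35% and 1.29%, GGTCACACT, in 3.72% and 3.29%, TCAGTT, in 6.76% and 7.93%, and GCCATNTT, in 3.04% and 2.35%. For GGTCACACT the replicate top lists went the other way, with 2.53% ± 0.873 of members and 3.14% ± 0.156 of the others (SD, n = 3). Among summits in the 150 bp upstream of the TSS, CAGCTG was in 17.6% and 9.76%, GAGAG in 5.09% and 11.5%, and TATAAA in 8.33% and 16.4%. A match to a pattern is a description of sequence and not a bound site, and GC content, which also differed, was not separated from these shares.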

How the data were processed

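The material was ChIP-seq peaks from Bab1-GFP adult females (3 biological replicates). Per the deposited file listings, peaks were called against 1 control library per list on dm6. Aligner, caller and IDR threshold: not given in the sources used here. Signal values deposited by the authors come from the peak caller. The authors also deposited −log10 q values, which were left aside since all IDR peaks share 1 value. The summit offset deposited by the authors, a position in bp and neither a score nor a level, gave each summit. Depth is unknown.

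Summits were compared with TSSs of Ensembl release 115 (BDGP6.54, transposons left out) and with the RefSeq Release 6 sequence, whose chromosome lengths all lie past the last peak. Scripts used Python 3.11.15, pandas 2.3.3, numpy 2.4.6, scipy 1.17.1 and matplotlib 3.10.9, and were checked on simulated data. A peak was found in a replicate when its summit lay inside a top-list peak. Tests were exact two-sided sign-flip permutations over 3 replicates, whose smallest p is 0.25. Exact (Clopper-Pearson) 95% intervals cover counting error only. Nothing in the labels says whether replicates came from separate cultures.

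The members and the gene lists were chosen with earlier results of these data known. Genes named were the 20 strongest members, the 5 strongest with 2 copies, all members of the first 4 lists, the 3 strongest of the others, members in no top list and those at the rule's edges. Sequence from 1 chromosome arm was not shown. The planned sequences with 3 or more copies did not occur, so windows with 2 were shown. Alternatives changed the window, the promoter, the annotation, the match, the IDR list, the overlap, the list length and the replicates.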

Additional observations from a re-analysis of the deposited data

How the results depend on the processing

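The 296 members became 154 with 25 bp on either side, 518 with 100 bp on either side of the summit, 711 with 1 mismatch allowed outside the central CG and 148 in the stronger 50% of IDR peaks. Of them, 217 to 220 were in the top lists of both remaining replicates when 1 was left out. The difference in the share found in top lists, 3.25 percentage points, turned to -1.30 when a reciprocal overlap of 50% was required, and was 1.15 to 4.88 with 1 replicate left out. The difference in rank percentile, -0.246, turned to 0.0544 with 100 bp on either side, to 0.154 with 1 mismatch and to 0.323 without replicate 2, was -1.35 in the stronger 50% of IDR peaks, and was -0.723 to 0.323 with 1 replicate left out. The gene-level difference of 36.8 percentage points was positive under all 8 alternatives run, from 23.0 to 39.3, and 36.5 to 37.0 with 1 replicate left out. The 6 DNA replication genes at members became 3 with 25 bp on either side, 11 with 100 bp on either side and 1 in the stronger 50% of peaks, and 4 to 5 with 1 replicate left out. For the strength of DRE peaks all alternatives were chosen after seeing the data. The strongest of 4 bins gave -1.15 percentage points, -1.68 to -0.653 with 1 replicate left out, and 3.30 in the whole lists of 30000 peaks. The strongest of 10 bins gave -2.87 percentage points, -3.74 to -2.09 with 1 replicate left out, and 1.42 in the whole lists. Settings that a result does not use, such as the summit window for the gene-level share, gave it no value of their own. A wider or narrower rule changes the count by its own construction, and the cause of the other reversals was not tested. No paired analysis was possible because there was 1 group. Depth is unknown, and the sign-flip test used here cannot pass 0.05 with 3 replicates.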

Other observations

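Outside promoters, 8 of 1882 IDR peaks (0.425%, exact 95% interval 0.184 to 0.836%) had a DRE in the summit window, 6 in introns, 1 in an exon and 1 between genes. In the replicate top lists the count was 10 of 1992, 8 of 1978 and 9 of 2052. The nearest genes were CG42709 (IDR signal 325.7), Tlk (303.4), CG5157 (294.0), lncRNA:CR44282 (291.4), Dmtn (220.8), CG3603 (214.6), Rgl (212.8) and bun (211.9). Of these peaks, those near Tlk and lncRNA:CR44282 had a top-list peak in every replicate, and the other 6 did not. Orc2, a replication gene with 3 promoter DREs, had its nearest IDR summit 18798.5 bp from any of them.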
